A study of Mus musculus with 6 samples.

Results

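The Dppa (developmental pluripotency associated) genes are named for their expression in pluripotent cells and early embryos, and they are not all related by ancestry. Dppa2, Dppa3, Dppa4 and Dppa5a were examined through every probe set that the platform annotation gives to one of these genes alone, which were 5 of the 45037 probe sets tested. Dppa2 had 2 probe sets, and Dppa3, Dppa4 and Dppa5a had 1 each. E14TG2a is a mouse embryonic stem (ES) cell line derived as an Hprt-deficient line, so both groups share that background. The 3 differentiating samples were E14TG2a cells grown for 3 days in medium without leukaemia inhibitory factor (LIF), from which cells with surface 5T4 were collected by flow cytometry. The 3 undifferentiated samples were the same line kept in LIF (1000 units per ml) and collected as the 5T4-negative fraction. LIF withdrawal and the 5T4 sort changed together, so their contributions cannot be told apart. No source used here says whether the numbered replicates came from separate cultures, so a p-value reflects the spread among these samples alone, which may be technical.

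Dppa2 and Dppa4 encode related nuclear proteins with a SAP domain, a DNA-binding fold. They work as a pair on chromatin, mark developmental promoters in ES cells and are known activators of genes of the 2-cell embryo such as the Zscan4 cluster. Dppa3, also called Stella or PGC7, is a maternal and germ cell factor that protects DNA methylation in the early embryo and restrains Uhrf1, a partner of the maintenance methyltransferase Dnmt1. Dppa5a, also called Esg1, encodes an RNA-binding protein with a KH domain. In ES cell cultures, Dppa3 is known to be active in some cells and silent in others.

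Dppa2 was the only one of the 4 genes with a significant change, and it was downregulated in differentiating cells at both of its probe sets. The other genes had lower means in differentiating cells as well, but none passed the test. Of the 5 probe sets, 2 passed at an adjusted p under 0.1, both lower, where 1.03% of all probe sets tested passed as lower. All 5 had a log2 fold change (log2FC, differentiating minus undifferentiated) below 0, against 44% of all probe sets. In 4 of the 5 the groups were fully separated with the differentiating arrays lower, as in 10.3% of all probe sets. An unadjusted p under 0.05 was found for 4 of the 5 and for 13.7% of all probe sets. With a log2FC of at least 1 in size also required, both Dppa2 probe sets were still called lower, where 0.613% of all probe sets were called lower and 0.329% higher. The values are log2 RMA values, in which a difference of 1 is a doubling of signal, and adjusted p is from limma over all probe sets. RNA was taken from whole sorted populations, so fewer expressing cells and less RNA per cell cannot be told apart.

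Differentiating replicate 1 stood apart from the other arrays of its group. Its lower quartile of all probe sets was 4.26, against 4.08 and 4.09 in the other differentiating arrays and 4.07 to 4.10 in the undifferentiated arrays. Klf4, a pluripotency factor that responds to LIF, was 8.17, 6.24 and 5.50 in differentiating replicates 1, 2 and 3, against 10.33 to 11.32 in undifferentiated cells. Tpbg, the gene of 5T4 itself, was 6.71, 7.52 and 7.97 in the differentiating replicates, against 5.94, 6.76 and 5.68 in undifferentiated replicates 1, 2 and 3. By these 2 transcripts, differentiating replicate 1 was the nearest of its group to the undifferentiated cells, and the Tpbg values of the groups overlapped (log2FC 1.27, limma adjusted p = 0.22). The mean over 18 ES cell associated transcripts was also highest in differentiating replicate 1 (10.12, against 9.62 and 9.24 in replicates 2 and 3). Single pluripotency genes were divided. Sox2 (11.38, 11.01 and 11.11 in differentiating replicates 1, 2 and 3) and Zfp42 (11.01, 9.43 and 8.69) were also highest in replicate 1. Pou5f1 (11.39, 11.53 and 11.45) and Nanog (11.28, 11.78 and 11.44) were lowest there. Undifferentiated replicate 2 stood apart for some markers of other cell types. Krt8, an epithelial keratin also used as a trophectoderm marker, was 12.54 there, against 8.33 and 9.64 in undifferentiated replicates 1 and 3. In differentiating replicates 1, 2 and 3 it was 12.49, 11.01 and 11.50. Col1a2, a fibroblast collagen, was 8.44 in undifferentiated replicate 2, against 5.55 and 6.51 in replicates 1 and 3. Some other trophectoderm and fibroblast markers were instead highest in undifferentiated replicate 1. Examples are Ascl2 (8.22, 6.78 and 6.55 in undifferentiated replicates 1, 2 and 3) and Thy1 (7.24, 5.21 and 5.45). Without undifferentiated replicate 2 the log2FCs were -1.85 and -1.94 for the Dppa2 probe sets, -1.38 for Dppa3, -0.59 for Dppa4 and -0.78 for Dppa5a. The part of these differences in the Dppa values was not tested.

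**Figure D1:**
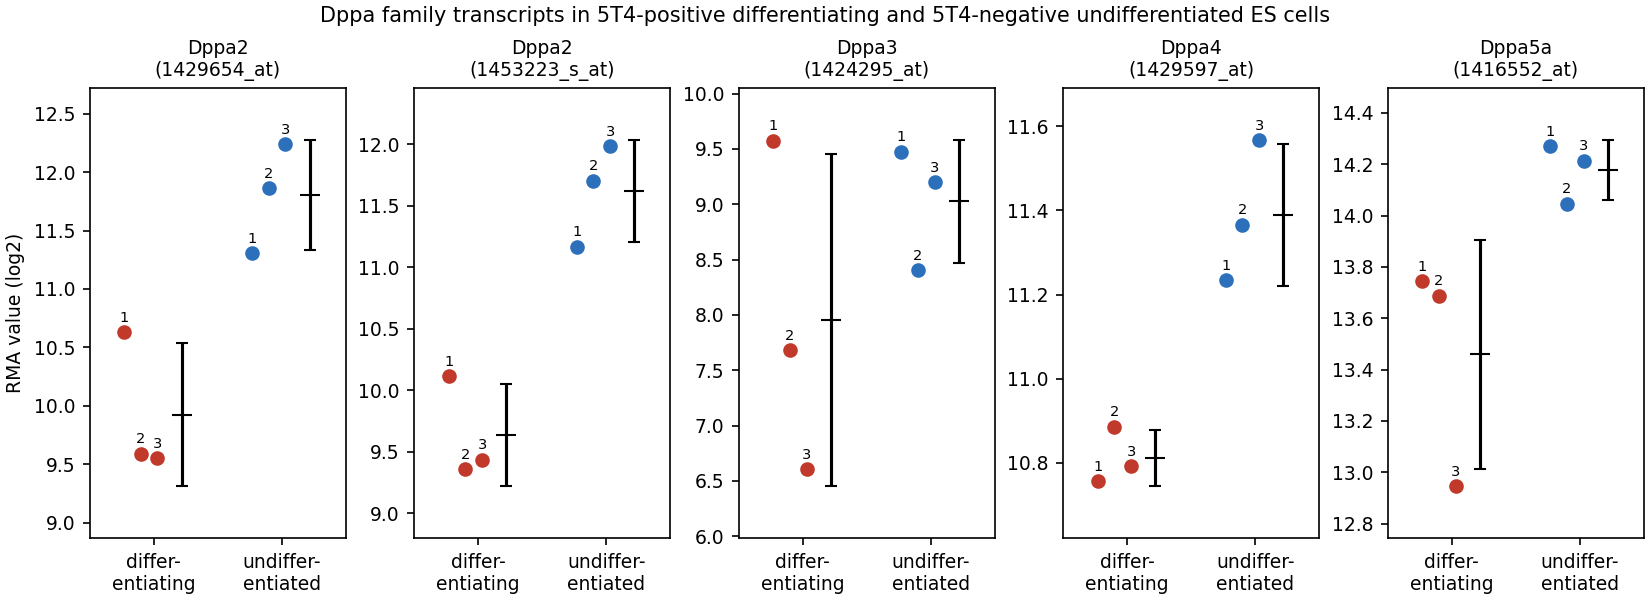
Signal of the 5 Dppa probe sets (log2 RMA value on the vertical axis, scaled separately in each panel) on each of the 6 arrays, differentiating 5T4-positive in red and undifferentiated 5T4-negative in blue. Small numbers are the replicates, and black bars are the mean and SD of 3 arrays. Only for Dppa3 do the groups overlap, where differentiating replicate 1 (9.57) lies above every undifferentiated array.

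At the brighter Dppa2 probe set (1429654_at), the values were 10.63, 9.59 and 9.55 in differentiating replicates 1, 2 and 3, against 11.31, 11.86 and 12.24 in undifferentiated replicates 1, 2 and 3. Replicate 1 was the highest of the differentiating arrays and the nearest to the undifferentiated group, yet the groups did not overlap. The means were 9.92 ± 0.61 in differentiating cells and 11.80 ± 0.47 in undifferentiated cells (SD, n = 3 each). Dppa2 was thus 3.68-fold lower, with a 95% interval of 2.06-fold to 6.56-fold (log2FC -1.88, standard error (SE) 0.35, limma adjusted p = 0.0927). Only 145 of the 45037 probe sets had a more negative log2FC.

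The second Dppa2 probe set (1453223_s_at) gave 10.11, 9.36 and 9.43 in differentiating replicates 1, 2 and 3, against 11.17, 11.70 and 11.98 in undifferentiated replicates 1, 2 and 3. It ordered the arrays almost as the brighter one did, again with differentiating replicate 1 the highest of its group. The downregulation was 3.95-fold (95% interval 2.51-fold to 6.21-fold, log2FC -1.98, SE 0.28, limma adjusted p = 0.0538). Both probe sets are annotated to the same gene on the same arrays, so they are repeat readings and not independent evidence. The difference between them was 0.12 to 0.52 in differentiating arrays and 0.14 to 0.26 in undifferentiated arrays, with 0.52 in differentiating replicate 1. An exact permutation test of 3 against 3 arrays gave a two-sided p of 0.1 for each Dppa2 probe set, the smallest value this design allows. The calls were lost when some single arrays were left out. When differentiating replicate 2 was left out, the limma adjusted p was 0.366 at the brighter probe set and 0.29 at the second. It was 0.321 and 0.247 when differentiating replicate 3 was left out, and 0.332 and 0.209 when undifferentiated replicate 3 was. Over all probe sets, 720 passed with all 6 arrays. Only 0, 3 and 1 passed without differentiating replicate 2, differentiating replicate 3 and undifferentiated replicate 3. These losses were thus not particular to Dppa2. Losses of other calls without these arrays, given below, are to be read beside these counts. Leaving out undifferentiated replicate 2 ended the call of the brighter probe set alone (0.112).

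Dppa4, the partner of Dppa2, had a smaller difference between groups. Its RMA values were 10.76, 10.89 and 10.79 in differentiating replicates 1, 2 and 3, against 11.23, 11.37 and 11.57 in undifferentiated replicates 1, 2 and 3. The differentiating arrays lay close together and all of them below the undifferentiated arrays. The log2FC was -0.58, or 1.49-fold lower (95% interval 1.21-fold to 1.84-fold, SE 0.13), and did not pass (limma adjusted p = 0.12). The SD of Dppa4 was 0.07 in differentiating cells and 0.17 in undifferentiated cells. Only 12.8% of probe sets had a smaller SD in differentiating cells. Differentiating replicate 1, the highest of its group for Dppa2, was the lowest for Dppa4.

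Dppa2 and Dppa4 stand next to each other in the RefSeq gene table with no annotated gene between them. The change of Dppa2 was more negative than that of Dppa4, the difference of the log2 values (Dppa2 minus Dppa4) being -1.30 with a 95% interval from -2.47 to -0.13. In an exact two-sided permutation test of the within-array difference this gave p = 0.1, or 0.3 after adjustment over the 6 pairs of genes compared, and the smallest p this design allows is 0.1. Within arrays, the Dppa2 minus Dppa4 difference was lower in every differentiating array than in every undifferentiated array. The same separation was seen for Dppa2 and Dppa5a, whose changes differed by -1.16 (95% interval -2.33 to 0.00298, p = 0.1 in the exact permutation test, adjusted p = 0.3). Since Dppa5a lay near the top of the scale, its own change may be understated in this comparison. For the other 4 pairs the interval of the difference included 0 widely and the exact permutation p was 0.3 to 0.8. These intervals, up to -3.13 to 2.15 for Dppa3 minus Dppa4, leave room for unequal changes.

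Dppa5a gave signals near the upper end of the scale. Its values were 13.75, 13.69 and 12.95 in differentiating replicates 1, 2 and 3, against 14.27, 14.05 and 14.21 in undifferentiated replicates 1, 2 and 3. No group overlap was present, and replicate 3 stood clearly below the other differentiating arrays. The highest value of any probe set was 14.65 to 14.69 on the differentiating arrays and 14.60 to 14.64 on the undifferentiated arrays. The log2FC was -0.72, or 1.64-fold lower (95% interval 1.14-fold to 2.38-fold, SE 0.23), which did not pass (limma adjusted p = 0.234). Without differentiating replicate 3 it was -0.46, 1.38-fold lower. The RefSeq gene table also lists the pseudogenes Dppa5b and Dppa5c, and Dppa3-ps for Dppa3, and whether the probes read their transcripts was not tested.

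Dppa3 varied more between differentiating replicates than almost any other transcript. Its values were 9.57, 7.68 and 6.61 in differentiating replicates 1, 2 and 3, against 9.47, 8.41 and 9.20 in undifferentiated replicates 1, 2 and 3. Differentiating replicate 1 lay above all undifferentiated arrays, whereas replicates 2 and 3 lay below all of them. The SD was 1.50 in differentiating cells and 0.55 in undifferentiated cells, and only 16 of the 45037 probe sets had a larger SD among the differentiating arrays. The log2FC of -1.07 had a 95% interval from -2.75 to 0.61, so that neither a clear decrease nor its absence could be shown (limma adjusted p = 0.575, exact two-sided permutation p = 0.4).

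Single arrays decided the size of the Dppa3 difference. Without differentiating replicate 1 the log2FC was -1.88, or 3.68-fold lower (95% interval -2.98 to -0.78), with no overlap between groups, and it still did not pass (adjusted p = 0.152). Without differentiating replicate 3 it was -0.40, and without undifferentiated replicate 2 it was -1.38. Dppa2 followed the same array to a smaller degree, with -2.23 and -2.22 at its probe sets without differentiating replicate 1, where Dppa4 was at -0.55 and Dppa5a at -0.86. Dppa4 was between -0.66 and -0.49 whichever array was left out.

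**Figure D2:**
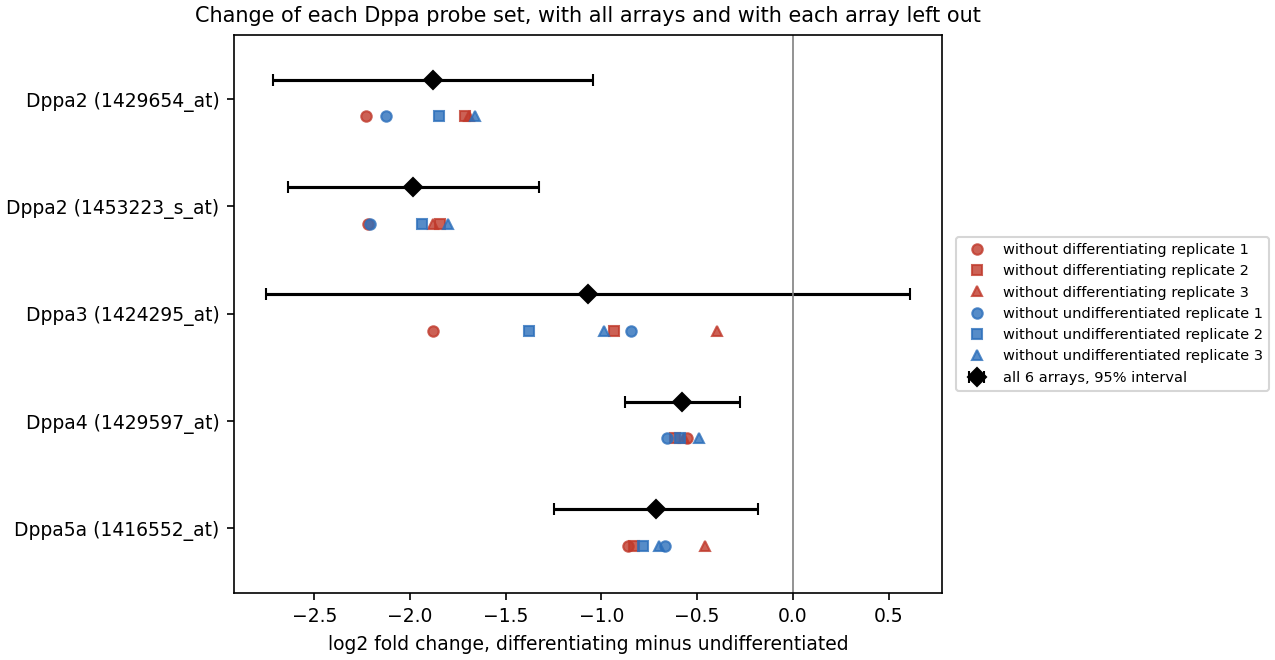
Log2FC (differentiating over undifferentiated, horizontal axis) of the 5 Dppa probe sets. Diamonds with bars are all 6 arrays with the 95% interval from limma, and smaller symbols are the values with 1 array left out, red for a differentiating and blue for an undifferentiated array. All values lie left of 0, and the Dppa3 values are spread from -1.88 to -0.40.

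Markers of other cell types gave no passing gene at their brightest probe set, with 0 of 10 for primitive endoderm, 0 of 10 for trophectoderm, 0 of 10 for fibroblasts and 0 of 9 for blood and endothelium. An unadjusted limma p under 0.05 was found for 3, 1, 2 and 1 of them, against 17.2% of all genes at their brightest probe set. The share was highest for primitive endoderm. The mean value over the primitive endoderm markers was 6.40 to 6.67 in differentiating arrays and 6.00 to 6.50 in undifferentiated arrays, and over the fibroblast markers it was 5.55 to 6.04 in differentiating and 5.28 to 5.70 in undifferentiated arrays. The trophectoderm markers averaged 5.75 to 6.15 in differentiating and 5.67 to 6.41 in undifferentiated arrays, and those of blood and endothelium 4.63 to 4.90 in differentiating and 4.77 to 5.03 in undifferentiated arrays. Dab2, a primitive endoderm marker, had the largest log2FC of its list, 1.96 (adjusted p = 0.141), and passed at other probe sets. The table holds no detection calls, so no marker could be called absent, and their part in the Dppa values was not tested.

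Among 18 other transcripts known as ES cell associated, many of them found in the same screens as the Dppa genes, 3 passed as lower and none as higher, where 1.45% of all genes passed as lower and 0.797% as higher at their brightest probe set. The median log2FC was -0.72, against 0.02 for all 18193 genes, and 17 of the 18 were below 0, against 46.4% of all genes. Eras, a constitutively active Ras of ES cells, was 3.03-fold lower (log2FC -1.60, SE 0.31, limma adjusted p = 0.0949). Sox2 and Pou5f1 were 1.94-fold and 1.61-fold lower (adjusted p = 0.0897 and 0.0859). Zfp42, also called Rex1, had a larger log2FC of -2.64 that did not pass (adjusted p = 0.106), with 11.01, 9.43 and 8.69 in differentiating replicates 1, 2 and 3 and 12.10 to 12.60 in undifferentiated cells. Averaged over this list, differentiating replicate 1 was at 10.12, replicates 2 and 3 were at 9.62 and 9.24, and the undifferentiated arrays were at 10.70 to 11.05. Leaving out any one of differentiating replicates 2 and 3 and undifferentiated replicates 1 and 3 ended all of these calls. With differentiating replicate 1 left out, 7 members passed. These counts are of the brightest probe sets. Fgf4 and Trim28 passed only at another probe set, so 5 of the 18 passed at any probe set, where 2.93% of all genes did.

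Among genes of germ cells, in which Dppa3 is a marker of the primordial stage, 24 were measured. Of these 6 passed as lower and none as higher, where 1.45% of all genes passed as lower and 0.797% as higher. The median log2FC was -0.55, and 19 were below 0, against 46.4% of all genes. Syce1, a component of the synaptonemal complex, was 6.55, 6.24 and 6.39 in differentiating replicates 1, 2 and 3, against 8.37, 8.31 and 8.54 in undifferentiated replicates 1, 2 and 3. The groups lay far apart relative to their spread, and Syce1 was 4.04-fold lower (log2FC -2.02, SE 0.13, limma adjusted p = 0.0198). Stk31, a kinase-like gene of the germ line, was 2.89-fold lower (adjusted p = 0.0457), Tfap2c, a transcription factor of primordial germ cells, was 7.15-fold lower (adjusted p = 0.0818), and Hormad1, a meiotic chromosome axis gene, was 4.18-fold lower (adjusted p = 0.0859). Prdm14 and Kit were the others that passed. Several germ cell genes did not go this way, with log2FCs of 0.82 for Tdrkh, 0.62 for Sycp3 and 0.02 for Ddx4 (adjusted p from 0.319 to 0.987). Nkx2-5, a cardiac factor also kept in this list, had 0.17 (adjusted p = 0.771). Leaving out differentiating replicate 2 or 3 or undifferentiated replicate 3 ended all of these calls. With undifferentiated replicate 1 omitted 2 genes passed, and with differentiating replicate 1 omitted 10 did.

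The relatives of Dppa5a by KH domain and their partners in the oocyte, the subcortical maternal complex, contained 2 genes that passed among 9 measured, both lower, where 1.45% of all genes passed as lower. Ooep, a KH domain gene of the oocyte, was 9.09, 8.28 and 7.70 in differentiating replicates 1, 2 and 3, against 10.94, 9.99 and 10.49 in undifferentiated replicates 1, 2 and 3. Its groups did not overlap, and it was 4.34-fold lower (log2FC -2.12, SE 0.38, limma adjusted p = 0.0887), beside -0.72 for Dppa5a, and the difference between these changes was not tested. Nlrp4f averaged 4.15 in differentiating cells and 5.09 in undifferentiated cells (log2FC -0.94, adjusted p = 0.0871). Khdc3, another KH domain gene, had a log2FC of -2.47 that did not pass (adjusted p = 0.13). The median of the list was -0.21, or -1.36 with dim probe sets left out, where 1 member passed. Khdc1a and Khdc1b had group means of 3.02 to 3.53, below the lower quartile of every array. Nlrp4f was also below it in differentiating replicates 2 and 3 (4.06 and 3.90). Such low values cannot be separated from background here. The calls of Ooep and Nlrp4f were both lost when differentiating replicate 2 or 3 or undifferentiated replicate 1 or 3 was omitted. That of Nlrp4f was also lost without undifferentiated replicate 2 (limma adjusted p = 0.108).

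For the 2-cell stage genes that Dppa2 and Dppa4 are known to activate, 8 of 20 listed genes were measured by a probe set of their own, and the Zscan4 genes were not among them. None passed over all probe sets. An unadjusted p under 0.05 was found for 4, against 17.2% of all genes, and 7 were below 0, against 46.4%. The median log2FC was -0.56, or -0.35 without undifferentiated replicate 2, and 3 genes passed without undifferentiated replicate 1. Usp17la, a deubiquitinase gene, was 4.94, 5.36 and 4.52 in differentiating replicates 1, 2 and 3, against 6.34, 8.77 and 7.96 in undifferentiated replicates 1, 2 and 3 (log2FC -2.75, limma adjusted p = 0.112). Ubtfl1 showed 3.57, 3.26 and 3.42 in the differentiating arrays, against 3.90, 6.53 and 5.36 in the undifferentiated arrays (log2FC -1.85, adjusted p = 0.238). Both were highest in undifferentiated replicate 2, which was not the highest array for either Dppa2 or Dppa4. Duxf3, Tcstv1, Tcstv3 and Tdpoz1 had group means of 3.14 to 3.90, below the lower quartile of every array. Duxf3 was among the genes below 0 with a log2FC of -0.01. A low value, such as these or those of Ubtfl1 in differentiating cells, cannot be separated from background here. The counts and the median of this list therefore rest in part on such values.

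Of 11 measured DNA methylation enzymes and their partners, among which Dppa3 acts, none passed at its brightest probe set, and 7 had an unadjusted p under 0.05, against 17.2% of all genes. Dnmt3a, Dnmt3b, Tet1, Tet2 and Trim28 passed, in one direction or the other, at another probe set, where 2.93% of all genes passed at any probe set. At the brightest probe sets 3 passed without differentiating replicate 1 and 2 without undifferentiated replicate 1. Tet2 and Dnmt3l had the most negative log2FCs, -2.72 (adjusted p = 0.114) and -2.29 (adjusted p = 0.108). Uhrf1, the protein product of which Dppa3 inhibits, had a log2FC of -0.45 (adjusted p = 0.258) and Dnmt1 one of -0.28 (adjusted p = 0.462). Differentiating replicate 1 was the highest of its group for Tet2 (8.61) and Dnmt3l (9.95), as it was for Dppa3 and for most genes of this list. Unlike those of Dppa3, the groups of Tet2 and Dnmt3l did not overlap. Of 19 SAP domain genes and chromatin factors, Eed, a Polycomb subunit, was the only one to pass (1.45% of all genes passed as lower), 2.24-fold lower (log2FC -1.16, limma adjusted p = 0.0483), with a list median of -0.11. Of 14 primed epiblast genes 3 passed as higher and none as lower, where 0.797% of all genes passed as higher and 1.45% as lower, and the list median was 0.96. These were Sall2 (2.21, adjusted p = 0.0806), Fgf5 (1.92, adjusted p = 0.0734) and Zic2 (0.91, adjusted p = 0.0897). The calls of Eed and of the epiblast genes were all lost when differentiating replicate 2 or 3 or undifferentiated replicate 3 was omitted. With undifferentiated replicate 1 omitted 1 epiblast gene passed, and with differentiating replicate 1 omitted 5 did.

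**Figure D3:**
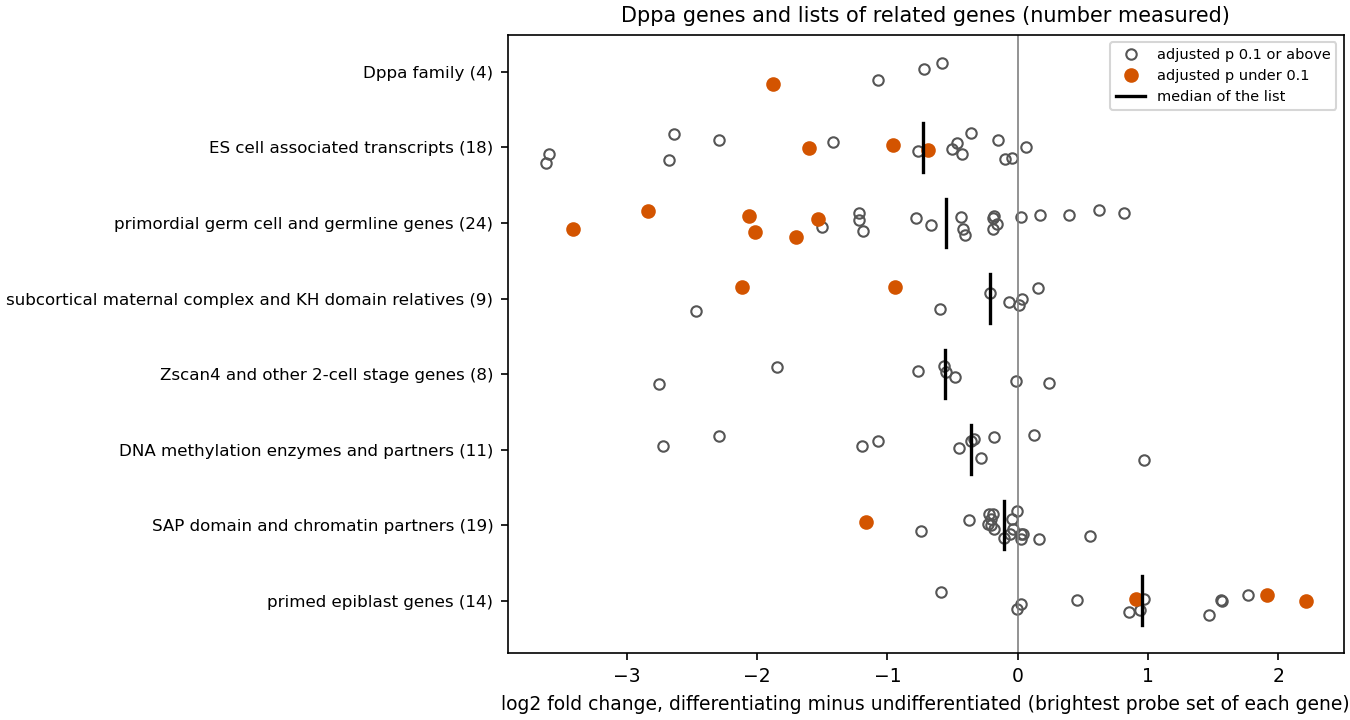
Log2FC (differentiating over undifferentiated, horizontal axis) of the 4 Dppa genes and of each measured member of 7 gene lists, each gene drawn once at its brightest probe set. Filling marks an adjusted p under 0.1, black lines are list medians, and vertical offsets only separate points. The germline list holds 6 filled points left of 0, and the primed epiblast list holds 3 to the right.

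The genes beside the Dppa loci were examined by their order in the RefSeq gene table, taking the 5 nearest on each side. Of these 30 neighbours 15 were measured, and 3 passed, all lower and all on the same side of Dppa5a, where 2.25% of all genes passed in either direction. Ooep, the gene next to Dppa5a, was described above with its KH domain. Ddx43, a DEAD-box helicase gene next to Ooep, was 6.58, 6.89 and 6.40 in differentiating replicates 1, 2 and 3, against 8.49, 7.76 and 8.38 in undifferentiated replicates 1, 2 and 3 (log2FC -1.58, SE 0.23, limma adjusted p = 0.0571). Mto1, which encodes a mitochondrial tRNA modification enzyme, was lower by a smaller amount (log2FC -0.75, adjusted p = 0.0693). All 3 calls were lost when differentiating replicate 2 or 3 or undifferentiated replicate 3 was omitted (adjusted p of Ddx43 0.267, 0.25 and 0.243, and of Mto1 0.311, 0.267 and 0.277). The neighbours on the other side, Gsta2, Omt2a and Omt2b, had group means of 3.14 to 3.79.

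Beside Dppa2, Morc1, a germ line ATPase gene, was 9.00, 6.77 and 5.14 in differentiating replicates 1, 2 and 3, against 10.97, 10.41 and 10.43 in undifferentiated replicates 1, 2 and 3. Its log2FC of -3.63 was the largest of all 15 measured neighbours in size but did not pass (SE 0.87, limma adjusted p = 0.142), and differentiating replicate 1 was again the highest of its group. Gdf3, a TGF-beta family gene adjacent to Dppa3, was 9.61, 10.22 and 10.18 in differentiating replicates 1, 2 and 3, against 9.70, 10.17 and 10.44 in undifferentiated replicates 1, 2 and 3, with a log2FC of -0.10 (adjusted p = 0.899). It lacked the spread of Dppa3, and its replicate 1 arrays were the lowest of each group. Nanog, the fifth gene on the other side of Dppa3, had a log2FC of -0.50 (adjusted p = 0.345). Of the 4 measured neighbours of Dppa3, Mfap5, on the same side as Gdf3, had the largest change (log2FC -0.85, limma adjusted p = 0.136). It was 6.08, 5.55 and 5.78 in differentiating replicates 1, 2 and 3, against 6.78, 6.86 and 6.32 in undifferentiated replicates 1, 2 and 3, without overlap.

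**Figure D4:**
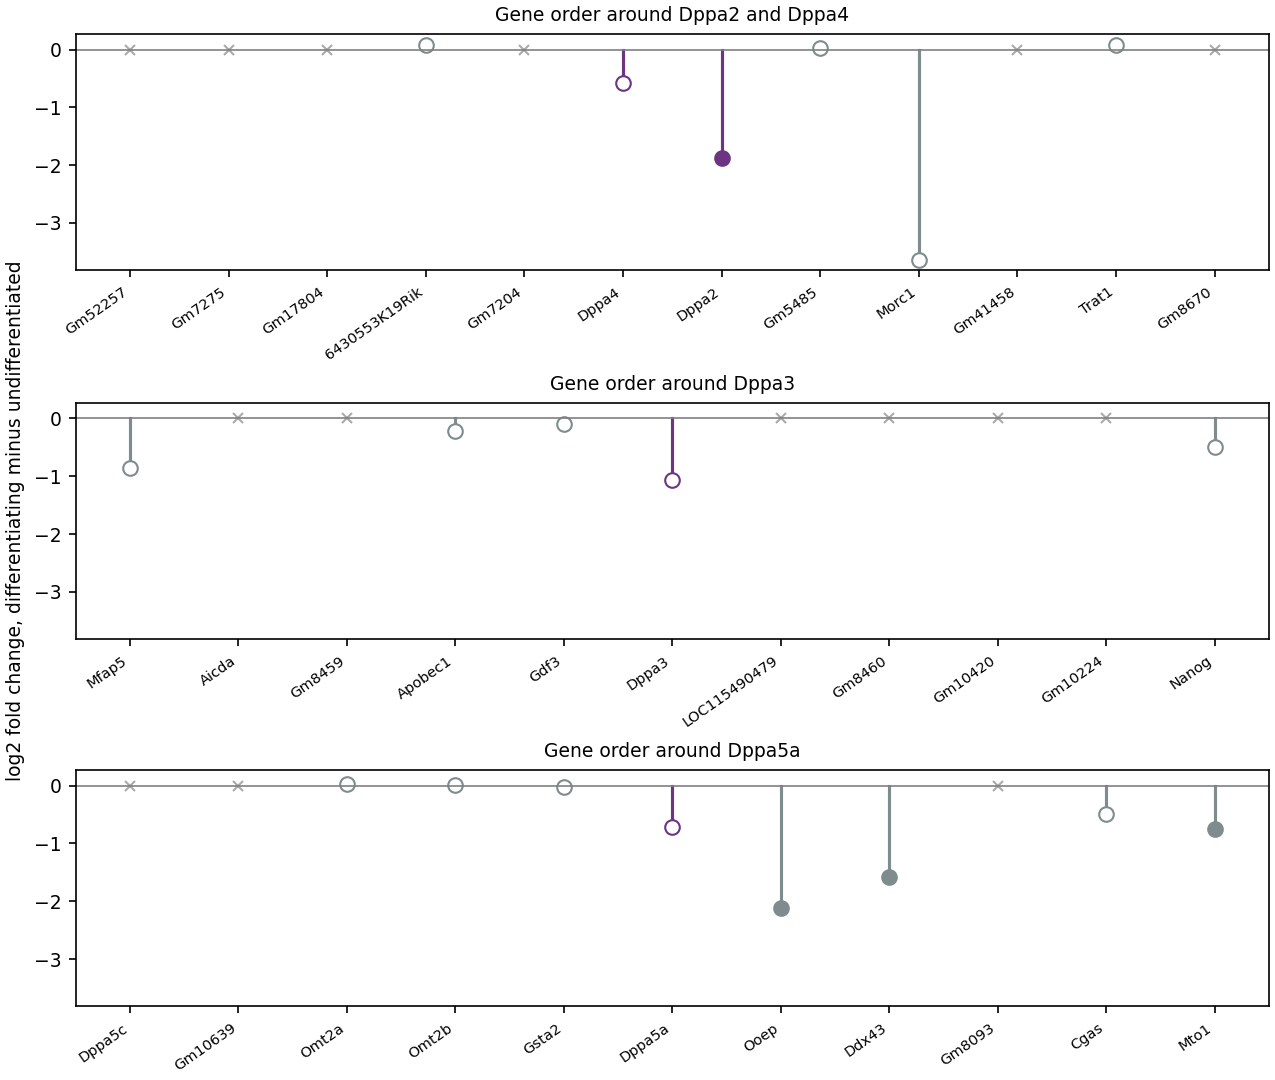
Log2FC (differentiating over undifferentiated, vertical axis) of genes in their order around the Dppa2 and Dppa4 pair, Dppa3 and Dppa5a, spaced evenly and not to genomic distance. Purple marks Dppa genes and grey marks neighbours, filled symbols have an adjusted p under 0.1, and crosses are genes with no probe set of their own. Ooep, Ddx43 and Mto1 beside Dppa5a are the filled neighbours, and Morc1 beside Dppa2 has the lowest value (-3.63).

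The genes whose pattern over the 6 arrays was nearest to each Dppa gene were found by the root mean square difference of centred log2 values, over 9096 genes of at least median signal. Closeness was used to choose them, so it is a description only. The values were not scaled, so the difference tends to grow with a gene's own range and does not rank the Dppa genes by closeness. Nearest to Dppa2 were Ak7, an adenylate kinase gene (root mean square difference 0.19), Bnc2, a zinc finger gene (0.20), Dlc1 (0.20), and Slc25a12, a mitochondrial carrier gene (0.24). Ak7 and Slc25a12 passed the test with log2FCs of -2.00 and -1.79 (adjusted p = 0.0636 and 0.0736). Both calls were lost when differentiating replicate 2 or 3 or undifferentiated replicate 3 was omitted (adjusted p of Ak7 0.298, 0.26 and 0.266, and of Slc25a12 0.338, 0.257 and 0.289). The nearest to Dppa3 were Liph, Aurkc, Inpp5d and Snhg3, of which Aurkc is a kinase gene of germ cells. Their differences were 0.34 to 0.37, and none passed (adjusted p from 0.26 to 0.445). Aurkc was 8.48, 6.92 and 5.90 in differentiating replicates 1, 2 and 3, against 9.53, 7.84 and 8.74 in undifferentiated replicates 1, 2 and 3. Its groups overlapped, but differentiating replicate 1 lay above undifferentiated replicate 2 alone, whereas for Dppa3 it lay above all undifferentiated arrays.

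The genes nearest to Dppa4, which had the smallest log2FC of the Dppa genes in size, were Ddx20, Zfp715, Gnpnat1 and Slc39a14 at 0.05 to 0.06. Those nearest to Dppa5a, Acot8, Zfp516, Ric8b and D230025D16Rik, were at 0.12 to 0.15. None of these 8 genes passed (adjusted p from 0.106 to 0.41). By the same measure Dppa4 and Dppa5a were 0.29 apart and all other pairs of Dppa genes 0.72 to 0.98 apart. No Dppa gene was among the 4 nearest of another. The nearest genes were picked from 9096, and distances between ordinary pairs of genes were not examined. Whether the Dppa genes lay unusually far from one another was therefore not tested.

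**Figure D5:**
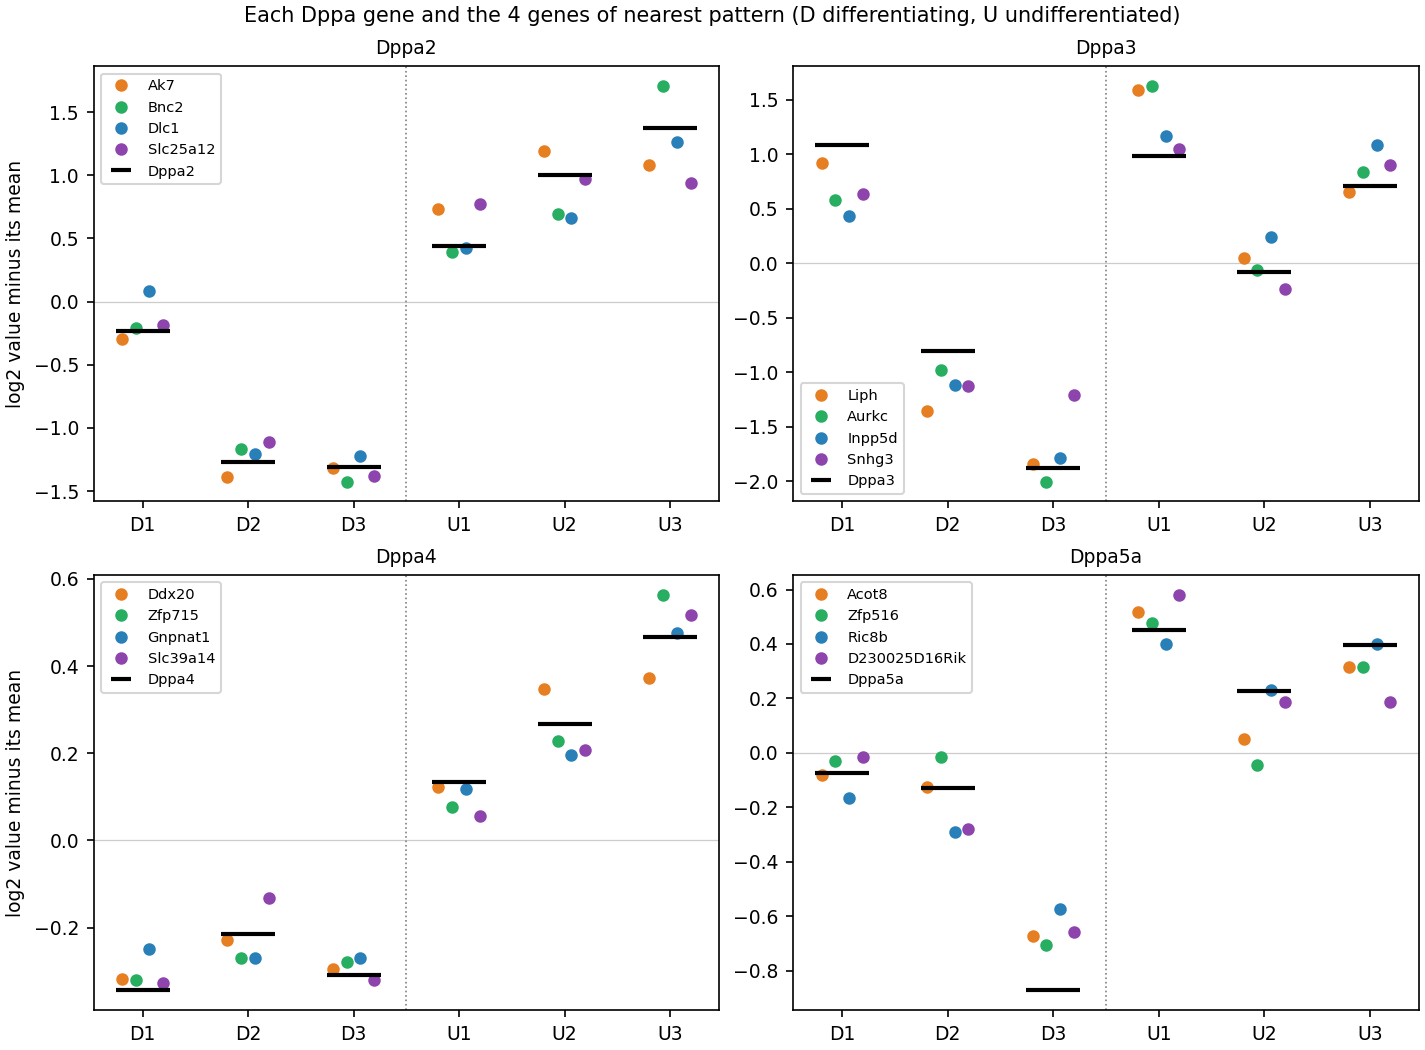
Log2 RMA value minus the mean of the 6 arrays (vertical axis, a separate scale in each panel) of each Dppa gene (black bars) and its 4 genes of nearest pattern (coloured points), with differentiating replicates D1 to D3 left and undifferentiated replicates U1 to U3 right of the dotted line. For Dppa3 itself D1 is level with U1 while D2 and D3 are lowest, and its 4 nearest genes have D1 below U1. In the Dppa4 panel D1 to D3 lie close together.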

How the data were processed

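RNA of 6 sorted E14TG2a samples was hybridised to Affymetrix mouse arrays, and the authors preprocessed them with RMA in the affy library (version not given in the sources used here). The deposited values are log2 values per probe set, background corrected and normalized between arrays, and were not transformed again. The table has 45101 probe sets, and 45037 were tested after removal of 64 array controls. Platform annotation gave 34945 of them 1 symbol, 932 several and 9160 none, and 0 symbols changed for the 34741 whose gene ID was found in a RefSeq table (GRCm38.p6). Only those with 1 symbol were named, though all were tested. A gene is represented by its probe set of highest mean unless stated otherwise.

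Groups were compared in R 4.3.3 by limma 3.58.1 (lmFit, then eBayes, no block, which the methods do not mention), with Benjamini-Hochberg adjustment over all 45037 probe sets. A probe set passes at an adjusted p under 0.1, and it is called higher or lower if the log2 fold change is also 1 or more in size. Standard errors and 95% intervals are moderated, except for pairs of Dppa genes. These were compared by an exact permutation test of within-array differences, with intervals from their pooled variance. The fit was tested on simulated data. The array number limits the precision, and the table holds no detection calls. The members and gene lists were chosen with earlier results of these data known. Named genes are all Dppa probe sets, Klf4, Pou5f1, Sox2, Tpbg, up to 4 passing members of smallest adjusted p per list (or the 2 of largest change), passing neighbours (or the 2 of largest change) and the 4 nearest patterns. Other genes named were chosen after their values were seen.

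The fit was repeated with a replicate block, with array weights, with a trended robust variance, after median centring or a second quantile normalization, without dim probe sets, with array controls, and without each array, besides other thresholds and other choices of probe set or of likeness measure.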

Additional observations from a re-analysis of the deposited data

How the results depend on the processing

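Every Dppa probe set kept a log2 fold change below 0 under all 13 refits. The brighter Dppa2 probe set no longer passed with a replicate block (-1.88, adjusted p = 0.147) or after a second quantile normalization (-1.83, adjusted p = 0.11), and 1 Dppa probe set passed in each case. Dppa4 passed with array weights (-0.59, adjusted p = 0.0132) and with a trended robust variance (-0.58, adjusted p = 0.097). In the main limma fit 0 Dppa probe sets passed at an adjusted p under 0.05, although 4 had an unadjusted p under 0.05. With array weights the Dppa2 probe sets were at -2.36 and -2.38 (limma adjusted p = 0.00243 and 0.0021). In that refit 7174 of all probe sets passed at 0.1, against 720 in the main fit. The second Dppa2 probe set was also under 0.05 after median centring (0.0482) and with a trended robust variance (0.0343). The other Dppa calls were the same under every refit that used all 6 arrays. With 1 array left out, the 2 Dppa2 probe sets lay between -2.23 and -1.66 and between -2.22 and -1.80, and 0 to 2 Dppa probe sets passed. Over all probe sets, 148 were called higher and 276 lower, against 694 and 742 with array weights, 23 and 77 at an adjusted p under 0.05, and 258 and 462 with no log2 fold change threshold. With 1 array left out, 0 to 563 were called higher and 0 to 494 lower, and none passed in limma without differentiating replicate 2, although 4129 then had an unadjusted p under 0.05. The causes were not tested.

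The deviations from the group mean of arrays with the same number correlated at 0.205, -0.110 and 0.115 for replicates 1, 2 and 3, so the numbers were not taken to pair the samples. Of 646 refitted values of named genes other than the Dppa genes, 518 kept direction and call, 73 lost a call, 55 gained one and 0 changed sign. The number of list members that passed moved under at least 1 setting in every list. With a mean absolute difference, 2 of the 4 genes nearest to Dppa4 and 2 of those nearest to Dppa5a were the same, and without the filter on signal 1 of those nearest to Dppa5a was. With 3 arrays a group, a difference that did not pass is not shown to be absent, and without detection calls a dim value cannot be told from background.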
